A study of Mus musculus with 61 samples.

Results

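Oxidative phosphorylation subunits are the proteins that form the 5 enzyme complexes of the inner mitochondrial membrane. The members described here are the protein-coding genes of the deposited expression table whose symbols begin with Ndufa, Ndufb, Ndufc, Ndufs or Ndufv and a number, with Uqcr, with Cox and a number from 4 to 8, or with Atp5, together with Sdha, Sdhb, Sdhc, Sdhd and the mitochondrially encoded mt-Nd, mt-Cytb, mt-Co and mt-Atp genes. This rule, which uses names only, found 97 genes among the 43346 rows of the table. Of these, 84 are encoded in the nucleus and 13 in the mitochondrial genome. The nuclear members comprise 35 of complex I, 4 of complex II, 8 of complex III, 20 of complex IV and 17 of complex V. The mitochondrial members comprise 7 of complex I, 1 of complex III, 3 of complex IV and 2 of complex V. Ndufa4 and Ndufa4l2 carry complex I names and are counted under complex IV, where the Ndufa4 protein is found.

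The samples were fetal mouse forebrain, midbrain, hindbrain and liver, from embryonic day (E) 10.5 to the day of birth (P0). Brain tissue was sampled at E10.5, E11.5, E12.5, E13.5, E14.5, E15.5, E16.5 and P0, and liver at the same stages from E11.5 onwards. Of the 31 combinations of tissue and stage, 30 had 2 libraries and forebrain at E10.5 had 1, which gave 15 forebrain, 16 midbrain, 16 hindbrain and 14 liver libraries. The sources used here give no strain, sex, genotype or number of animals per library. The labels do not say that replicates are separate animals, so each p-value measures only the spread between these libraries, which may be technical.

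Complex I takes electrons from NADH and complex II takes them from succinate, complex III passes them through cytochrome c to complex IV, which reduces oxygen, and complex V uses the resulting proton gradient to make ATP. The core of complexes I, III, IV and V is built from proteins of both genomes, and only complex II is entirely nuclear. Fetal liver is the main site of red cell production before birth and fetal brain turns from dividing progenitors to neurons over these stages, and both tissues also contain vessels and blood.

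Values are TPM (each transcript's share of all transcripts in its library, on a common total), which are corrected for transcript length. Levels of different genes can thus be set side by side roughly, except where rows share reads. TPM keeps no read depth, so the depth behind each value is unknown. The deposited columns added up to between 997627 and 1000000.3 TPM, and between 12104 and 15561 genes reached 1 TPM in a library. The totals were lowest at E12.5, with group means of 998149 to 999401 TPM. Small nucleolar RNA rows, summed, had group means of 1070 to 1528 TPM at E12.5 and of 142 to 535 TPM at the other stages. The E12.5 libraries are part of the comparisons averaged over stages. The labelled tissues were checked against defining genes, of which Alb, Hoxb3 and En2 are given. Alb, a hepatocyte gene, was at 2586 TPM or more in every liver library and at 112 TPM or less in every brain library. Hoxb3, a hindbrain gene, went against the labels at E15.5: it was at 78.0 and 87.6 TPM in the libraries labelled midbrain and at 0.15 and 0.24 TPM in those labelled hindbrain, where all other hindbrain libraries had 22.3 TPM or more. En2 was at 9.14 and 9.48 TPM in the E15.5 libraries labelled midbrain, below all other midbrain libraries. In those labelled hindbrain it was at 24.05 and 24.11 TPM, within the range of the other hindbrain libraries. In midbrain and hindbrain, 1 column of E16.5 and 1 of P0 each carry a stage in the header that differs from the stage in the sample record, 4 columns in all. They are placed by their header here and called unnumbered. MicroRNA rows, summed, were at 4.31 TPM or less in the E15.5 libraries, at 55.5 and 42.9 TPM in the midbrain P0 libraries and at 41.9 TPM in the unnumbered hindbrain P0 library, against 336 TPM in hindbrain P0 replicate 1. Haemoglobin genes took 5.8 to 38.8% of all TPM in liver and 0.15 to 2.23% in brain. Dividing each library by the median of gene ratios in place of the TPM total moved the median difference of all genes from -0.69 to -0.02 (log2) for liver at P0 against E11.5, and from 0.82 to 0.02 for brain against liver.

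The control regions of the nuclear members carry known elements. NRF1 and factors of the ETS family (GABP) are textbook activators of respiratory chain genes, and YY1 binds many of their promoters. A RefSeq start site window (GRCm38.p6, 250 bases before to 50 after the start, 300 in all) was matched for 68 of the 84 nuclear members. The NRF1 letters (GCGCA, any base, then GCGC) stood in 17 of the 68 windows (25.0%), against 7.2% of the windows of 17492 protein-coding genes. CCGGAAG (ETS) stood in 16 (23.5%, against 12.9%) and ATGGCGG (YY1) in 10 (14.7%, against 6.1%). Both strands were searched, and a match counted whether or not it overlapped a match of another motif. Among the genes of these windows that were expressed in these tissues and tested, 12375 in all, the shares were 9.8%, 17.0% and 8.0%. At least 1 of the motifs stood in 36 windows, and none held all 3.

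The following 250 bases upstream of the start show members that rose in brain with a motif (Ndufa8, Ndufs5, Cox6a1 and Cox6b1) and without one (Ndufv3), Atp5h, which fell in all 3 brain regions, and Cox6b2 and Cox7a1, the low partners of Cox6b1 and Cox7a2, each 5′ to 3′ on the gene's strand. Capitals mark the motif letters. The Ndufa8 window lies on the minus strand at chr2:36049339-36049588, with an NRF1 motif whose first base is at -30 from the start. The Ndufs5 window lies on the minus strand at chr4:123718187-123718436, with an NRF1 motif at -98. The Cox6a1 window lies on the minus strand at chr5:115348959-115349208, with NRF1 motifs at -162 and -117 and an ETS motif at -16. The Cox6b1 window lies on the minus strand at chr7:30626115-30626364, with an ETS motif at -28. Atp5h lies on the minus strand at chr11:115419920-115420169, with an NRF1 motif at -141 and an ETS motif at -38. Ndufv3 (plus strand, chr17:31519865-31520114), Cox6b2 (minus strand, chr7:4753095-4753344) and Cox7a1 (plus strand, chr7:30183921-30184170) hold none of these letters in the window. Of the members called higher at P0 in all 3 brain regions, 20 had a window and 10 of these held a motif, against 26 of 48 among the other nuclear members.
Ndufa8: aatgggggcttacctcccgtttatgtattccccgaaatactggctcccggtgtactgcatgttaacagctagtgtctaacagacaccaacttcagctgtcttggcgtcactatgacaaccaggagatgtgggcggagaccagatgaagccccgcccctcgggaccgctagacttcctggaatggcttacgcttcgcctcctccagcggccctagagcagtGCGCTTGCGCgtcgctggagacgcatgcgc
Ndufs5: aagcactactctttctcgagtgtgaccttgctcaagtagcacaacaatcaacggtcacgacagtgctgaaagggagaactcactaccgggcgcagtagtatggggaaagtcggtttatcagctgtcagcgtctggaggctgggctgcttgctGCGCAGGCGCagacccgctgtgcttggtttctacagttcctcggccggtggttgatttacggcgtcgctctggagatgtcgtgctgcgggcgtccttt
Cox6a1: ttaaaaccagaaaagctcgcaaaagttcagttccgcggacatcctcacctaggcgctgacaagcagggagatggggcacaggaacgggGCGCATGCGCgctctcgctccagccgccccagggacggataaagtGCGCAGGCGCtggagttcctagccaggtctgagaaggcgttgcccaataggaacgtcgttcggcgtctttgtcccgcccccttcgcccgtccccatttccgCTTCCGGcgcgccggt
Cox6b1: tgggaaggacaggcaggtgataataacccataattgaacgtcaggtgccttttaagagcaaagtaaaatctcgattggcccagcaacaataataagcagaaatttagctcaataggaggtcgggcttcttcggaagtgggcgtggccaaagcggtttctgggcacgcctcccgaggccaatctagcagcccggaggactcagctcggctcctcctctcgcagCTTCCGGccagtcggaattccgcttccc
Ndufv3: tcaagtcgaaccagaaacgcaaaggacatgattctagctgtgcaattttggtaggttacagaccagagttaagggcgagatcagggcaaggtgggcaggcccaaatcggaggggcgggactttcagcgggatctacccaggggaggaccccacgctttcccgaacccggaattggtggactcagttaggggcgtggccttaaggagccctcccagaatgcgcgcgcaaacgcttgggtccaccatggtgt
Atp5h: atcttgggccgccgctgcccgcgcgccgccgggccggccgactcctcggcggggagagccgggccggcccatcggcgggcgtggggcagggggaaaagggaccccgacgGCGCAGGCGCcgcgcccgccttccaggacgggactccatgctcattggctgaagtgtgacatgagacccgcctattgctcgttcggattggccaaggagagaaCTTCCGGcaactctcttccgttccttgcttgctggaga
Cox6b2: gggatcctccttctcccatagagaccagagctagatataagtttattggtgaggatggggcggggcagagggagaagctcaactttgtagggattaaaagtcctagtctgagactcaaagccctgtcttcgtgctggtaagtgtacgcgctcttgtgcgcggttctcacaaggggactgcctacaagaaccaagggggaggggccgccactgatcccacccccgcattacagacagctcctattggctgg
Cox7a1: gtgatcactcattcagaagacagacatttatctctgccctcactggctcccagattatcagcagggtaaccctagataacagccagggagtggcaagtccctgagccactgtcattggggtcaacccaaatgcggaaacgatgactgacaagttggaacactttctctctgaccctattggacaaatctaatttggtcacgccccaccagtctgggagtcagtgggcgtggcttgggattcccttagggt
A match is a description of letters, not a site shown to be bound.

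Subunit transcripts were abundant everywhere. The 13 mitochondrial genes together took 3.12 to 9.44% of all TPM in brain libraries and 3.30 to 5.06% in liver libraries. The 84 nuclear genes together took 1.51 to 2.51% in brain and 1.24 to 2.39% in liver. Per library the mitochondrial sum was 1.47 to 5.93 times the nuclear sum in brain and 1.52 to 3.26 times in liver. The highest mean levels over all 61 libraries were those of mt-Atp8 (15082 TPM), a short subunit of complex V, mt-Co1 (12528 TPM), the catalytic core of complex IV, and mt-Cytb (8182 TPM), the cytochrome b of complex III. The highest nuclear means were those of Atp5b (1119 TPM), the catalytic beta subunit of complex V, Cox6b1 (685 TPM) and Ndufa4 (598 TPM), both of complex IV. Both orders are of the deposited rows and change when the pseudogene copies described below are counted. The place of mt-Atp8 also depends on how the reads it shares with mt-Atp6 were divided. The copies of mt-Atp6, mt-Co2 and Cox7c alone had means of 18450, 16838 and 1218 TPM. Of the 84 nuclear members, 75 were above 10 TPM in every library and 73 had a mean of at least 50 TPM.

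A few members were close to 0. The lowest tested means belonged to Cox8b (0.22 TPM), Cox6a2 (0.82 TPM) and Cox4i2 (2.48 TPM), isoforms of complex IV known from muscle or lung. Cox7b2 reached at most 0.74 TPM and was listed at 0 in 23 libraries, and Cox8c reached at most 0.07 TPM and was listed at 0 in 57. Both failed the filter of at least 1 TPM in at least 2 libraries, so 82 nuclear members and all 13 mitochondrial members were tested.

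Several mitochondrial genes have near-identical nuclear copies that held much of their signal. A run of 7 unprocessed pseudogenes lies side by side on the minus strand of chromosome 1 (mm10), and each of them repeats part or all of mt-Atp6, mt-Co2, mt-Co3, mt-Co1, mt-Nd4l, mt-Nd3 or mt-Nd4. Gm28437, at chr1:24613189-24613971, matches mt-Co3 at 100% of its 783 bases, and Gm28438, at chr1:24612775-24613119, matches mt-Nd3 at 99.71%. Gm10925, at chr1:24613974-24614651, matches mt-Atp6 at 100%. Reads from the identical stretches of such pairs cannot be told apart by sequence, and the authors' estimate divides them.

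The division varied widely between libraries. The mt-Co3 row ranged from 156 to 14260 TPM, a 91.7-fold range, whereas mt-Co3 and Gm28437 added together ranged from 7726 to 20828 TPM, a 2.7-fold range. In liver at E14.5, mt-Co3 stood at 9144 and 8542 TPM in the libraries in which Gm28437 stood at 196 and 32.2 TPM. In liver at E15.5 the same rows stood at 156 and 165 and 9643 and 9159 TPM, so the larger value stood in the other row while the sum was in the same range. The mt-Nd3 row held between 0.719 and 96.2% of its sum with Gm28438, with a median of 3.46%. Median shares of the own row were 3.25% for mt-Atp6, 2.31% for mt-Co2, 23.6% for mt-Nd4l and 60.3% for mt-Co1. Changes of these rows are therefore given both as deposited and with the copies added, an alternative chosen after seeing the data. With the 7 copies included, mitochondrial sequence took 7.15 to 17.5% of all TPM in brain and 6.08 to 11.2% in liver. All such shares and sums are of TPM, not of reads, and a read counts for more TPM in a shorter row. Gm29216, the larger copy of mt-Co1 by TPM, has 492 bases, while mt-Co1 aligned over 1545 bases to its other copy. Sums and shares over rows of unequal length are therefore approximate, here and below. Among the nuclear members 7 have a processed pseudogene above a mean of 10 TPM: Cox7c, Ndufb4, Atp5g2, Atp5l, Atp5g1, Ndufa12 and Ndufs5. Copies held 86.7% of the summed TPM for Cox7c, 86.5% for Ndufb4 and 78.6% for Atp5g2, so single rows of these genes are uncertain.

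**Figure D1:**
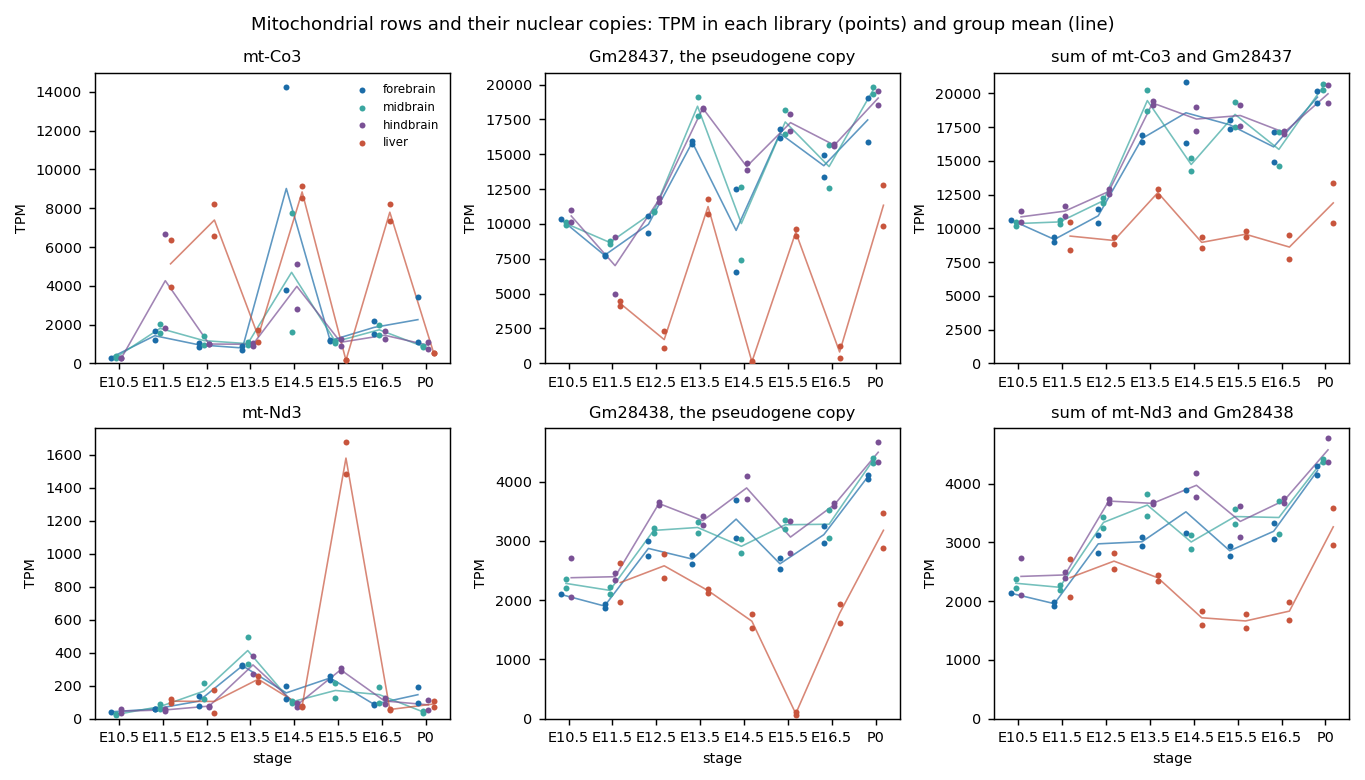
TPM of mt-Co3 and mt-Nd3, of their chromosome 1 copies Gm28437 and Gm28438, and of each pair's sum, per library by stage in 4 tissues. The mt-Co3 row spans 156 to 14260 TPM while the sum spans 7726 to 20828 TPM.

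Mitochondrially encoded genes were higher at P0 than at E11.5 in all 3 brain regions. Of 13, 11 rose and none fell in forebrain, 9 rose and 1 fell in midbrain, and 8 rose and 1 fell in hindbrain, at an adjusted p below 0.05. Among all 18655 genes tested, the percentages called in either direction were 73% in forebrain, 75.6% in midbrain and 72.4% in hindbrain, with 38.8%, 36.4% and 34.6% higher. Median log2 differences over the 13 genes were 0.80, 0.78 and 0.76, against 0.02, -0.01 and -0.02 over all genes. In bulk tissue, fewer cells of a type and less RNA per cell cannot be told apart. Log2 differences are of log2(TPM + 1), a scale that understates changes of low genes.

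The following 6 mitochondrial genes have no copy above a mean of 10 TPM, or, for mt-Nd4, a copy far below the gene. mt-Nd2, a membrane-arm core subunit of complex I, stood at 2082 and 2377 TPM in the E11.5 forebrain libraries and at 4672 and 4679 TPM at P0. In midbrain it went from 2609 and 2589.5 to 6240.1 and 6682 TPM and in hindbrain from 2860.0 and 2756 to 6701 and 6274 TPM. The P0 libraries were above the E11.5 libraries in each region with no overlap, by 1.07 ± 0.10, 1.31 ± 0.10 and 1.21 ± 0.10 on the log2 scale (± SE; adjusted p = 3.01e-11, 1.71e-13 and 1.84e-12). mt-Nd1, another membrane-arm core subunit, rose by 0.98, 1.02 and 0.99 in forebrain, midbrain and hindbrain. The log2 rises of mt-Nd4 were 1.03, 1.09 and 1.01, while its copy Gm28439 was at a mean of 38 TPM. mt-Nd5 rose by 0.71, 0.78 and 0.85, although its midbrain call was lost when the stage of the sample record was used. mt-Cytb rose by 0.79, 0.78 and 0.76, and mt-Atp8, whose sequence overlaps that of mt-Atp6 so that their reads are partly shared, by 1.02, 1.28 and 1.17. Quantile normalization ended the forebrain calls of both and the midbrain call of mt-Cytb.

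mt-Nd6, the only member transcribed from the other mitochondrial strand, did not follow. It stood at 102 and 115 TPM in forebrain at E11.5 and at 112 and 129 TPM at P0, a log2 difference of 0.15 that was not called (adjusted p = 0.682). In midbrain the values were 120.0 and 109 TPM and 51.2 and 102 TPM, and the difference of -0.66 passed the threshold at an adjusted p of 0.04995. The midbrain call was lost without midbrain E11.5 replicate 1, E11.5 replicate 2 or P0 replicate 1. In hindbrain the P0 libraries, at 149 and 56.7 TPM, lay on both sides of the E11.5 libraries at 126 and 124 TPM. The libraries were of poly(A) RNA, and how fully the mt-Nd6 message was captured is unknown.

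For the genes with large chromosome 1 copies, the deposited rows and the sums differed. The mt-Co3 row, for a core subunit of complex IV, gave log2 differences of 0.46 (adjusted p = 0.467), -1.04 and -1.94 in forebrain, midbrain and hindbrain, and the sum with Gm28437 gave 1.10, 0.97 and 0.82. For mt-Nd3 the row gave 1.22, -0.84 and 0.56 and the sum 1.11, 0.98 and 0.90. For mt-Nd4l the row gave 0.74, -0.59 and -0.12 and the sum 0.996, 0.94 and 0.95. With the copies added, every mitochondrial gene other than mt-Nd6 was called higher in each of the 3 regions. mt-Co2 then differed by 0.72, 0.83 and 0.80, mt-Atp6 by 1.04, 0.79 and 0.72, and mt-Co1 by 0.90, 0.91 and 0.83. As deposited, mt-Co1 rose by 0.81, 0.73 and 0.72, but quantile normalization turned it to -0.09, -0.46 and -0.18. As deposited, the forebrain calls of mt-Atp6, mt-Nd3 and mt-Nd4l were lost without at least 1 of the forebrain libraries (mt-Nd3 without E11.5 replicate 2 or P0 replicate 1, mt-Nd4l and mt-Atp6 without E11.5 replicate 1, P0 replicate 1 or P0 replicate 2), and that of mt-Co2 without P0 replicate 2. In hindbrain, that of mt-Atp6 was lost without the unnumbered P0 library and that of mt-Co3 without E11.5 replicate 1.

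**Figure D2:**
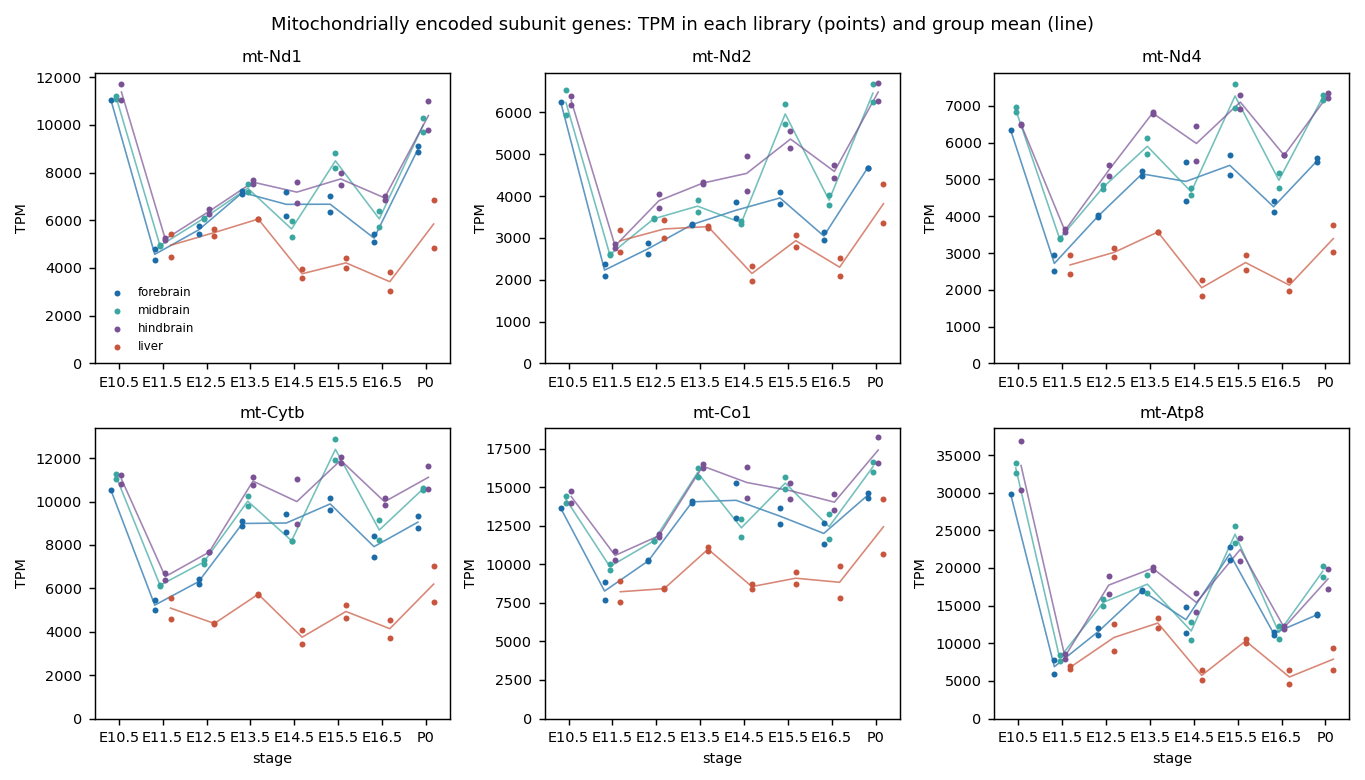
TPM of mt-Nd1, mt-Nd2, mt-Nd4, mt-Cytb, mt-Co1 and mt-Atp8 by stage, with a point per library and a line through the group means, in 4 tissues. The brain P0 libraries stand above the E11.5 libraries, a direction that quantile normalization reverses for mt-Co1, and the E10.5 libraries stand high.

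The course between these stages was not a steady one. At E10.5 the 13 mitochondrial genes summed to 83873 TPM in forebrain, 90469 and 88729 TPM in midbrain and 94437 and 85489 TPM in hindbrain. At E11.5 the sums were 31192 and 37182, 40815 and 39173 and 48391 and 41686 TPM, the lowest of each region, and at P0 they were 61493 and 65309, 74424 and 77595 and 79771 and 76777 TPM. In this sum the E10.5 libraries thus stood above the E11.5 libraries with no overlap. The nuclear sum had the other order, with 15568 TPM in forebrain, 15871 and 15973 TPM in midbrain and 15928 and 15080.0 TPM in hindbrain at E10.5 and 19015 to 21186 TPM over the brain regions at E11.5. With the chromosome 1 copies added, the mitochondrial means at E10.5 were 155094, 159367 and 160909 TPM in forebrain, midbrain and hindbrain. At E11.5 they were 74900, 85066 and 90348 TPM. Not every gene followed in each region. mt-Co3 with its copy had means of 10636, 10347 and 10847 TPM at E10.5 and 9176, 10473 and 11272 TPM at E11.5. mt-Nd3 with its copy had 2136.5, 2305 and 2422 TPM and then 1958, 2237 and 2447 TPM. No test was made between these stages.

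In liver the mitochondrial genes moved less evenly. Of 13, 5 rose and 2 fell at P0 against E11.5, where 77.5% of all genes tested were called, 13.9% higher and 63.6% lower. mt-Nd2 stood at 3199.7 and 2663 TPM at E11.5 and at 3349 and 4285 TPM at P0 (log2 difference 0.38 ± 0.10, adjusted p = 0.0015). The P0 libraries were the higher ones, but the smaller P0 value was close to the larger E11.5 value. mt-Nd1 (5432 and 4467 and 4849 and 6839 TPM) overlapped between the stages and was not called. mt-Nd4 differed by 0.34, mt-Nd5 by 0.64, mt-Cytb by 0.28 and mt-Co1 by 0.59, all called. Under quantile normalization mt-Co1 and mt-Cytb turned to -0.87 and -0.58, 3 genes rose and 5 fell, and under median-of-ratios scaling 11 rose and 1 fell. The number called fell from 7 to 4 without liver E11.5 replicate 2 and to 3 without liver P0 replicate 2; each of these 2 libraries ended the calls of mt-Nd2, mt-Nd4 and mt-Cytb. The rows of mt-Co3 and mt-Co2 fell by 3.20 and 0.59, whereas with their copies added the differences were 0.33 and 0.20; median-of-ratios scaling also turned mt-Co2, to 0.58.

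Nuclear subunit genes of the brain were higher at P0 than at E11.5 more often than lower. Of 82 tested, 35 rose and 13 fell in forebrain, 39 rose and 11 fell in midbrain, and 56 rose and 1 fell in hindbrain, against 38.8% higher and 34.3% lower among all genes in forebrain, 36.4% and 39.2% in midbrain and 34.6% and 37.8% in hindbrain. As shares of the 82 members, 42.7% were higher in forebrain, which is near the share among all genes, 47.6% in midbrain and 68.3% in hindbrain, while 15.9%, 13.4% and 1.22% were lower. The median log2 differences were 0.13, 0.15 and 0.30, against 0.02, -0.01 and -0.02 over all genes. These medians kept their sign under both other scalings. Neuronal markers moved with them, with 10 of 10 higher and none lower in forebrain, 9 and 1 in midbrain and 10 and none in hindbrain, and progenitor and cell cycle markers moved the other way (0 higher and 10 lower, 0 and 10, and 1 and 9). The summed level of the 10 neuronal markers went from 1339 and 1305 TPM to 6597 and 7108 TPM in forebrain, and the part of cell composition in the subunit results was not tested.

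**Figure D3:**
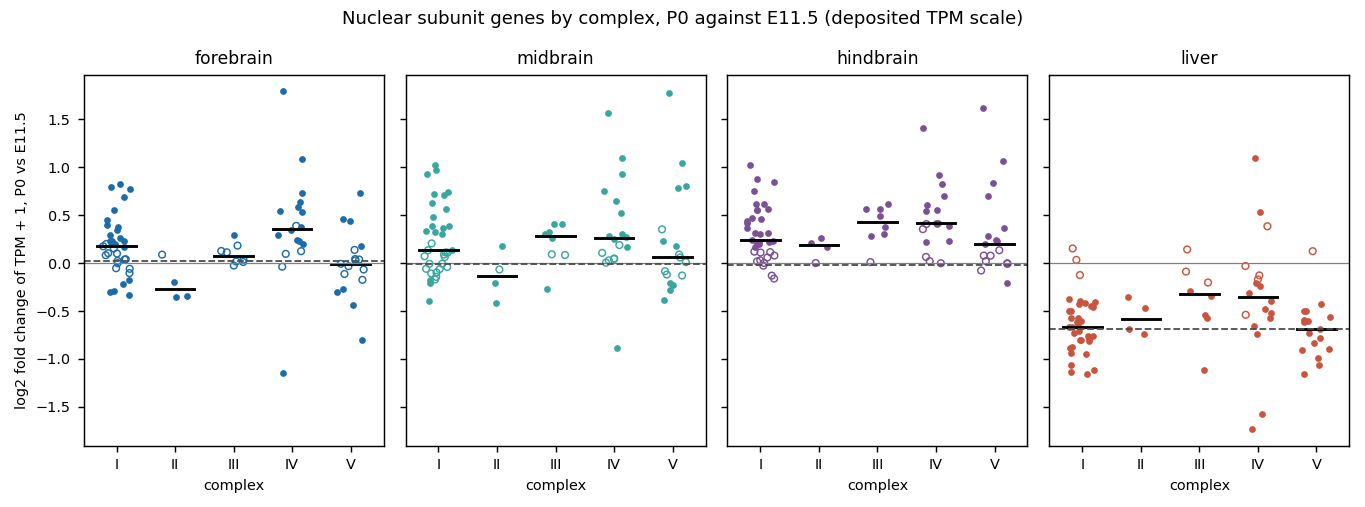
Log2 difference of TPM + 1 at P0 against E11.5 for each nuclear member, by complex I to V in 4 tissues, filled where the adjusted p is below 0.05 and open otherwise, with a black bar at the complex median and a dashed line at the median of all genes. In hindbrain 56 of 82 members are higher and 1 is lower, and in liver 68 are lower, which median-of-ratios scaling turns to 70 higher.

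In complex I, 17 of 35 nuclear genes rose and 5 fell in forebrain, 16 rose and 3 fell in midbrain, and 24 rose and none fell in hindbrain. Beside the counts by complex here and below, 38.8, 36.4 and 34.6% of all genes rose in these regions. The shares of all genes that fell were 34.3, 39.2 and 37.8%. Ndufv3 (chromosome 17, 31520115 to 31531331), an accessory subunit of the NADH-oxidising arm, stood at 135 and 105 TPM in forebrain at E11.5 and at 215 and 210.3 TPM at P0. In midbrain it went from 126 and 113 to 242 and 247 TPM and in hindbrain from 117 and 105 to 217 and 237 TPM. All P0 libraries lay above all E11.5 libraries, and the rises were 0.83 ± 0.09, 1.03 ± 0.09 and 1.03 ± 0.09 (adjusted p = 3.13e-10, 1.60e-12 and 1.86e-12). Ndufa8, an accessory subunit on the intermembrane side, went from 82 and 80.2 TPM to 160.4 and 159.7 TPM in midbrain and from 79.3 and 84.5 TPM to 142 and 161 TPM in hindbrain, rises of 0.97 and 0.88. Ndufb2, an accessory subunit of the membrane arm, rose by 0.80 ± 0.09 in forebrain (adjusted p = 7.60e-10). The most abundant complex I genes without a call were Ndufa3 in forebrain (0.04, adjusted p = 0.658) and Ndufa7 in midbrain (-0.01, adjusted p = 0.969).

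In complex II, 3 of 4 genes fell and none rose in forebrain, 1 rose and 2 fell in midbrain, and 3 rose and none fell in hindbrain; the difference between regions in these changes was not tested. Sdhc, a membrane anchor of the complex, stood at 287 and 294 TPM in forebrain at E11.5 and at 223 and 232 TPM at P0, and fell by 0.35 (adjusted p = 4.07e-06). It fell by 0.42 in midbrain (adjusted p = 1.87e-07) and differed by 0.001 in hindbrain (adjusted p = 1). Sdha, the flavoprotein that oxidises succinate, fell by 0.34 in forebrain and by 0.21 in midbrain and rose by 0.21 in hindbrain. The midbrain call of Sdha was lost under median-of-ratios scaling and its hindbrain call without hindbrain E11.5 replicate 1. Sdhb, the iron-sulfur subunit, rose by 0.26 in hindbrain, a call lost without the unnumbered P0 library.

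In complex III, 1 of 8 nuclear genes rose in forebrain, 5 rose and 1 fell in midbrain, and 7 rose in hindbrain. Uqcrc1, a core protein of the matrix side, stood at 149 and 167 TPM in hindbrain at E11.5 and at 226 and 243 TPM at P0, a rise of 0.57 ± 0.09 (adjusted p = 8.03e-07). In midbrain it rose by 0.40. Uqcr11, a small accessory subunit, rose by 0.41 in midbrain and by 0.61 in hindbrain, and its midbrain call was lost with the stage of the sample record. Uqcrq, a small subunit named for ubiquinone binding, went from 327 and 261 TPM to 378 and 338 TPM in forebrain, a rise of 0.29 that was lost without E11.5 replicate 2 or P0 replicate 1. Uqcrh, the hinge protein between cytochrome c1 and cytochrome c, differed by -0.02 in forebrain and 0.01 in hindbrain without a call, and fell by 0.27 in midbrain, where median-of-ratios scaling ended the call.

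In complex IV, 13 of 18 tested nuclear genes rose and 1 fell in forebrain, 11 rose and 1 fell in midbrain, and 13 rose and none fell in hindbrain. Cox6a1 (chromosome 5, 115345642 to 115348981), the widely expressed isoform of a regulatory subunit, stood at 434 and 421 TPM in midbrain at E11.5 and at 807 and 828 TPM at P0. In forebrain it went from 444 and 378 to 636 and 640.2 TPM and in hindbrain from 398 and 393 to 668 and 835 TPM. The stages did not overlap in any region, and the rises were 0.64 ± 0.09, 0.93 ± 0.09 and 0.92 ± 0.09 (adjusted p = 9.80e-08, 2.11e-11 and 4.13e-11). Cox8a, a small transmembrane subunit, rose by 0.29, 0.76 and 0.82, and Cox6b1, which faces the intermembrane space, by 0.37, 0.52 and 0.61. Ndufa4 rose by 0.59, 0.31 and 0.54, and Cox4i1, the regulatory subunit that binds ATP, by 0.23, 0.29 and 0.39. The forebrain calls of Cox8a and Cox4i1 were lost without E11.5 replicate 2, and that of Cox4i1 also without P0 replicate 2. Cox5a, a matrix-side subunit, was the most abundant complex IV member without a call in forebrain (0.12, adjusted p = 0.245).

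In complex V, 4 of 17 nuclear genes rose and 4 fell in forebrain, 6 rose and 4 fell in midbrain, and 9 rose and 1 fell in hindbrain. Atp5g1 (chromosome 11, 96068852 to 96075670) encodes subunit c of the rotor ring, and the proteins of Atp5g1, Atp5g2 and Atp5g3 are identical once mature. It stood at 209 and 182 TPM in hindbrain at E11.5 and at 363 and 464 TPM at P0, and rose by 1.07 ± 0.10 (adjusted p = 8.75e-12). It rose by 0.44 in forebrain and by 1.05 in midbrain, and with its copies added the 3 differences were 0.51, 1.08 and 1.06. The row of Atp5l, subunit g of the membrane part, gave 0.73, 1.78 and 1.62 and, with its copies added, 0.50, 0.28 and 0.35; on average 73.8% of the sum lay in the copies. The row of Atp5g2 fell by 0.80 in forebrain and differed by 0.35 and 0.14 without a call in midbrain and hindbrain, and with its copies added the differences were -0.62, -0.98 and -0.63, all called lower. Atp5g3 was not called in forebrain (-0.03, adjusted p = 0.695) or midbrain (0.09, adjusted p = 0.23) and rose by 0.37 in hindbrain. The forebrain call of the Atp5l row was lost without P0 replicate 2.

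A set of 25 nuclear members was called higher at P0 in all 3 regions: Ndufa1, Ndufa5, Ndufa6, Ndufa8, Ndufa11, Ndufb2, Ndufb8, Ndufb9, Ndufb10, Ndufc2, Ndufs5, Ndufv3, Uqcrq, Cox4i1, Cox5b, Cox6a1, Cox6b1, Cox6c, Cox7b, Cox8a, Ndufa4, Ndufa4l2, Atp5g1, Atp5l and Atp5s. Of all genes tested, 38.8, 36.4 and 34.6% were higher in forebrain, midbrain and hindbrain taken singly. The share of all genes called the same way in all 3 regions was not counted, so whether these members exceed it is unknown. Atp5h, subunit d of the stator stalk, was the only member called lower in all 3, by 0.44, 0.38 and 0.20; it was named after its values were seen, and its hindbrain call was lost without hindbrain E11.5 replicate 1, E11.5 replicate 2 or the unnumbered P0 library and under both other scalings.

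Nuclear subunit genes of the liver were lower in TPM at P0 than at E11.5, a direction that depends on the scaling. Of 82 tested, 2 rose and 68 fell, with a median log2 difference of -0.58 against -0.69 over all genes, and 63.6% of all genes were lower too. Under median-of-ratios scaling, which brings the median of all genes to -0.02, 70 rose and 2 fell, with a median of 0.59. Under quantile normalization 14 rose and 23 fell, with a median of -0.04. Relative to all genes the nuclear members were therefore higher by the median in each of these 3 scalings. The size of this gap depends on the scaling, since log2(TPM + 1) understates changes of low genes. The haemoglobin rows, which share the TPM total, stood at 58049.7 and 63037 TPM at E11.5, 388071 and 386844 TPM at E15.5 and 108527 and 114857 TPM at P0, and the summed hepatocyte markers at 12629 and 13725 TPM at E11.5 and 189702 and 176045 TPM at P0. The nuclear sum was 23875 and 23154 TPM at E11.5, 12564 and 12397 TPM at E15.5, where it was lowest, and 15143 and 17318 TPM at P0.

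By complex, 32 of 35 nuclear genes of complex I fell in liver TPM, as did all 4 of complex II, 5 of 8 of complex III, 11 of 18 of complex IV and 16 of 17 of complex V, each with a median that turns positive under median-of-ratios scaling. Among all genes tested 63.6% fell, which is near the shares of complexes III and IV. Uqcrc1 stood at 221 and 219 TPM at E11.5 and at 105 and 97.8 TPM at P0, a fall by 1.11 that median-of-ratios scaling turned to 0.06. Atp5g1 went from 419.6 and 474 to 199 and 227 TPM and fell by 1.06, turned to 0.11. Ndufa12, an accessory subunit of the matrix arm, fell by 1.15 and Ndufa10, an accessory subunit with a kinase-like fold, by 1.14, turned to 0.02 and 0.03. The falls of Sdhc by 0.74 and of Sdha by 0.69 turned to 0.43 and 0.48. Atp5g2 fell by 1.16, or by 0.85 with its copies added, and the call was lost under both other scalings. The most abundant members without a call were Ndufa4 (-0.03, adjusted p = 0.795) in complex IV, Uqcrh (-0.09, adjusted p = 0.303) in complex III and Ndufa6 (0.15, adjusted p = 0.0836) in complex I.

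Some members had the same direction in liver in all 3 scalings. Cox6b2 fell by 1.73 and by 0.57 and 0.85 under median-of-ratios and quantile scaling, and Cox4i2 by 1.58, 0.92 and 1.14. Ndufa4l2 rose by 1.09, 2.25 and 1.78. All 3 are minor isoforms of their families.

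**Figure D4:**
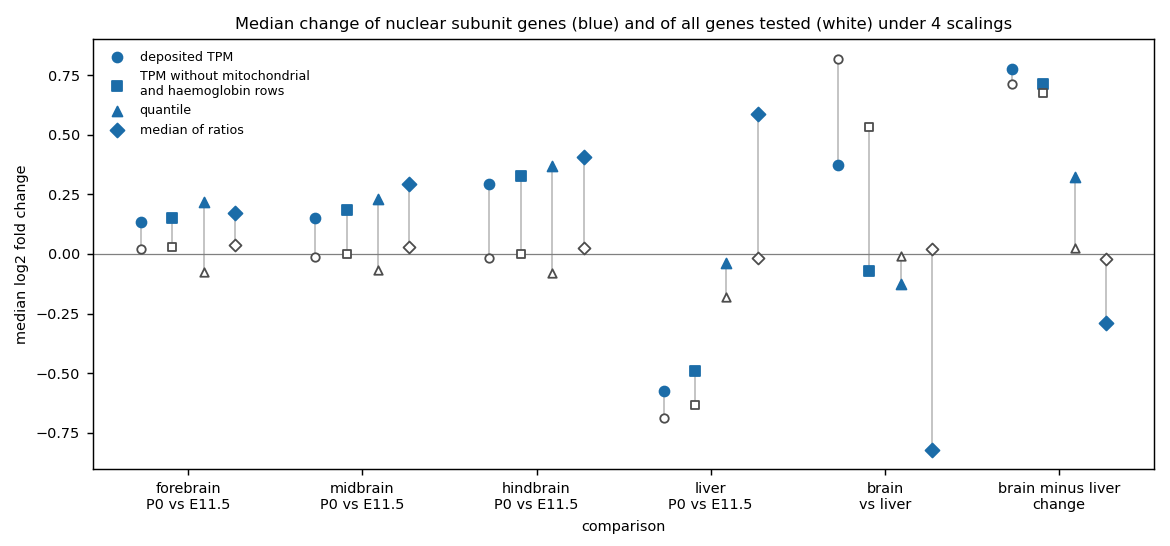
Median log2 difference of the nuclear members (blue) and of all genes tested (white) under 4 scalings for 6 comparisons. For liver at P0 against E11.5 the nuclear median goes from -0.58 in TPM to 0.59 under median-of-ratios scaling, and for brain against liver from 0.37 to -0.82.

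The change from E11.5 to P0 differed between brain and liver in TPM. The test of the difference (mean change of the 3 brain regions minus change in liver) called 76 of 82 nuclear members higher and none lower, where 81.1% of all genes were called and 63.6% higher. The median was 0.78 against 0.71 over all genes. Under median-of-ratios scaling 12 were higher and 43 lower, with a median of -0.29 against -0.02. The nuclear median thus lay above that of all genes in TPM and below it under median-of-ratios scaling. Log2(TPM + 1) understates changes of low genes, so rescaling moved the median of all genes less than that of the nuclear members. Ndufv3 (1.76), Atp5g1 (1.92), Uqcrc1 (1.44) and Cox4i2 (1.71) had large differences of change, and those under median-of-ratios scaling were 0.70, 0.85, 0.38 and 1.12. The change of Uqcrh was not called different (-0.01, 95% interval -0.18 to 0.17). Of the 13 mitochondrial genes 7 (53.8%, below the share of all genes) were higher and none lower, and under median-of-ratios scaling 6 were lower and none higher. Adding the copies took mt-Co3 from 2.36 to 0.63, and median-of-ratios scaling turned mt-Atp8 from 0.96 to -0.10.

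From E16.5 to P0, 32 of 82 nuclear members rose and 1 fell in forebrain, where 53.4% of all genes were called, 25.8% higher and 27.6% lower. The median was 0.16 against 0.00 over all genes. Ndufb8, an accessory subunit of the membrane arm of complex I, stood at 206 and 213 TPM at E16.5 and at 306 and 279 TPM at P0 and rose by 0.48 ± 0.07 (adjusted p = 4.41e-07). Ndufv3 rose by 0.44, Uqcr10, a small subunit of complex III, by 0.45, and Atp5d, the delta subunit of complex V, by 0.48. Sdhd, the other membrane anchor of complex II, rose by 0.15, a call lost without E16.5 replicate 1, P0 replicate 1 or P0 replicate 2. Of the mitochondrial genes 5 rose and none fell, among them mt-Nd1 (5082 and 5419.9 to 8854 and 9096 TPM, 0.77) and mt-Nd2 (0.62); with the copies added 9 rose. Without forebrain P0 replicate 1 the number of nuclear members called fell from 33 to 16.

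In liver from E16.5 to P0, 38 of 82 nuclear members rose and 2 fell, where 45.6% of all genes were called, 22.1% higher; with mitochondrial and haemoglobin rows taken out of the TPM total, 6 rose and 47 fell. Quantile normalization gave 15 higher and 7 lower. Uqcrq stood at 284 and 255 TPM at E16.5 and at 463 and 449 TPM at P0 (log2 difference 0.76 ± 0.10, adjusted p = 7.68e-08). Ndufa8 rose by 0.74 and Ndufb6, of the membrane arm of complex I, by 0.68, and these were 0.33 and 0.27 without the mitochondrial and haemoglobin rows. Sdhb rose by 0.41, which became -0.003 without those rows, and Atp5g3 by 0.44, which became 0.03. Of the mitochondrial genes 8 rose and 1, the mt-Co3 row, fell by 3.85; with its copy added mt-Co3 differed by 0.46. mt-Nd1 rose by 0.76 and mt-Nd2 by 0.73, and both turned under quantile normalization, to -0.11 and -0.02.

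Averaged over the 7 shared stages, nuclear members were higher in TPM in brain than in liver, with 68 of 82 higher and 12 lower, where 93.7% of all genes were called and 72.9% were higher in brain; median-of-ratios scaling turned this to 1 higher and 80 lower, and quantile normalization to 22 higher and 50 lower. The nuclear median of 0.37 was below that of all genes, 0.82. By the median the nuclear members were thus lower in brain relative to all genes in each of these scalings. The size of this gap depends on the scaling, since log2(TPM + 1) understates changes of low genes. With mitochondrial and haemoglobin rows taken out of the TPM total, the prevailing direction of the nuclear calls turned as well. Cox5a differed by 1.16, Ndufs4, an accessory subunit of complex I whose loss is known to cause Leigh-like disease in mice, by 1.08, Sdhc by 0.78 and Uqcrc1 by 0.52; under median-of-ratios scaling they turned to -0.04, -0.11, -0.42 and -0.67, and Uqcrc1 was -0.12 under quantile normalization. Atp5b was not called (-0.01, adjusted p = 0.684). Of the mitochondrial genes 10 were higher in brain and 1 lower, including mt-Nd4 (0.91) and mt-Cytb (0.86), and median-of-ratios scaling turned all 13 lower (mt-Nd4 -0.29, mt-Cytb -0.35). At P0 itself, mt-Nd4 stood at 5463 and 5575 TPM in forebrain, 7159 and 7309.5 TPM in midbrain, 7352 and 7226 TPM in hindbrain and 3025 and 3758 TPM in liver, with no overlap between the brain and the liver libraries.

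Differences between brain regions were small. Forebrain against midbrain gave 9 nuclear members higher and 33 lower, where 64.5% of all genes were called and 39.1% were lower, near the 40.2% of the nuclear members, with a nuclear median of -0.04 equal to that of all genes (-0.04). Forebrain against hindbrain gave 5 higher and 44 lower, where 70.4% of all genes were called and 44.5% were lower, with a median of -0.08 against -0.06. The largest differences were small: Ndufb8 was lower in forebrain than in midbrain by 0.30 and than in hindbrain by 0.38, Cox8a by 0.30 and 0.36, and Atp5g1 by 0.30 and 0.30. Ndufa1, a small membrane-arm subunit of complex I encoded on the X chromosome, differed by -0.33 between forebrain and hindbrain. Of the mitochondrial genes 7 were lower in forebrain than in midbrain and 7 lower than in hindbrain, and none was higher, with mt-Nd2 at -0.29 and -0.43. Both comparisons use the same forebrain libraries, and the E15.5 libraries labelled midbrain and hindbrain, whose Hoxb3 goes against the labels, are among them. With only the libraries of like microRNA rows and labels kept, a choice made after seeing the data, forebrain and midbrain differed in 26 nuclear members in place of 42 and in no mitochondrial gene in place of 7, and mt-Nd2 was no longer called.

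Several complex IV and complex V subunits exist as isoforms from separate genes, and in these tissues 1 isoform usually took nearly all of the family's TPM. Cox4i1 made up at least 99.2% of the Cox4i family in every library, Cox6a1 at least 98.6% of the Cox6a family, Cox8a at least 99.3% of the Cox8 family and Cox7b at least 99.8% of the Cox7b family. The Cox7a family was shared, with Cox7a2 at a median of 56.5% and Cox7a2l at 41.9% in liver, and at 46.8% and 52.8% in forebrain. Cox7a2l is known as a factor in the assembly of respiratory supercomplexes, and Cox7a1 as the muscle isoform. Of the deposited rows of the 3 subunit c genes, Atp5g3 held the largest median share in each tissue, at 53.1 to 56.9%, but the order depends on the copies. With them added, Atp5g2 held a median of 44.2% in forebrain against 33.5% for Atp5g3, and 37.8 against 36.2% in midbrain, 34.8 against 37.3% in hindbrain and 33.4 against 35.8% in liver.

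Cox6b2, known as the testis isoform of Cox6b, was higher in liver than in brain. It made up 5.5 to 16.6% of the Cox6b family in liver libraries and 1.06 to 6.03% in brain libraries. In liver it stood at 133 and 137 TPM at E11.5, 67.8 and 81.6 TPM at E14.5 and 43.8 and 36.7 TPM at P0. In forebrain it went from 40.5 and 30.8 to 17.9 and 13.3 TPM and in midbrain from 36.2 and 38.2 to 19.7 and 19.7 TPM. All P0 libraries of these 3 tissues lay below their E11.5 libraries, and Cox6b2 fell by 1.73 in liver, 1.14 in forebrain and 0.88 in midbrain (adjusted p = 4.13e-12, 6.75e-08 and 6.35e-06). In hindbrain, at 27.7 and 26.1 TPM and 24.8 and 29.1 TPM, the stages overlapped. From E16.5 to P0 forebrain Cox6b2 rose by 0.61, a call lost without P0 replicate 1. Over the shared stages it was lower in brain than in liver by 1.96, and by 3.14 and 2.84 under the other scalings. Germ cell markers were near 0 beside this: 7 of them summed to 2.5 TPM or less in every library, and Prm1 and Tnp1, which define sperm cells, reached at most 0.08 and 0.06 TPM.

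Ndufa4l2, a relative of Ndufa4 known to be induced by low oxygen, had its own course in each organ. In liver it stood at 15.4 and 17.1 TPM at E11.5, 0.98 and 0.66 TPM at E13.5 and 42.9 and 29.8 TPM at P0, high at both ends and low between. In forebrain it went from 2.44 and 1.77 TPM to 5.01 and 6.13 TPM. It rose from E11.5 to P0 by 1.08, 1.57, 1.41 and 1.09 in forebrain, midbrain, hindbrain and liver (adjusted p = 1.13e-05, 1.31e-08, 1.34e-07 and 8.09e-06), and the difference between the brain and liver changes was not called (0.26, 95% interval -0.21 to 0.73). The 12 hypoxia response genes summed to 2803 and 2970.2 TPM in liver at E11.5, 1106 and 1054 TPM at E13.5 and 2386 and 2197 TPM at P0, and to 1868 and 1779.6 TPM in forebrain at E11.5 and 880.1 and 1016 TPM at P0. Of these 12 genes, 3 rose and 8 fell in liver from E11.5 to P0, where 13.9% of all genes rose and 63.6% fell. The part of the 12 that fell in liver is thus near the share of all genes. In forebrain 3 rose and 6 fell, where 38.8% of all genes rose and 34.3% fell. The part of the hypoxia response genes in the Ndufa4l2 values was not tested.

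Cox4i2, the second Cox4i isoform, known from lung and from pericytes, stood at 4.42 and 4.67 TPM in liver at E11.5 and at 0.87 and 0.85 TPM at P0, and fell by 1.58 (adjusted p = 8.03e-11). In brain it was called in hindbrain only among the regions (0.41, adjusted p = 0.0234), and the differences between regions in its change were not tested. The 10 pericyte and mural markers summed to 267 and 285 TPM in liver at E11.5 and 1583 and 1199.9 TPM at P0, where Vtn, which hepatocytes also express, made up most of the sum. Without Vtn the sums were 113 and 117 TPM at E11.5 and 75.0 and 64.0 TPM at P0, lower at P0 with no overlap. In this liver comparison 63.6% of all genes were also lower in TPM, and the marker sums were not rescaled. Pdgfrb, a receptor of mural cells, went from 16.1 and 17.9 to 3.6 and 3.13 TPM. Rgs5 went from 9.58 and 10.8 to 2.01 and 1.99 TPM and Notch3 from 7.23 and 9.58 to 0.64 and 0.54 TPM. These 3 markers fell more steeply than the sum without Vtn, so the remaining markers together fell less steeply, and Vtn rose. Higd1b, another pericyte gene, was at 0.07 TPM at most in liver. The part of these cells in the Cox4i2 values was not tested.

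The muscle isoforms were low. Cox6a2, known from heart and skeletal muscle, was listed at 0 and 0.03 TPM in forebrain at E11.5 and stood at 2.85 and 2.21 TPM at P0, and rose by 1.79 on the log2(TPM + 1) scale (adjusted p = 4.45e-05). It rose by 1.10 in midbrain, a call lost with the stage of the sample record, and was not called in hindbrain (0.36, adjusted p = 0.394). In forebrain it rose from E16.5 to P0 by 1.57, whereas in liver it fell over those stages by 0.87 (adjusted p = 0.0495), a call lost without E16.5 replicate 2 or P0 replicate 1. Cox8b fell in liver by 0.85 from E16.5 to P0, a call lost without the same libraries. Cox7a1 rose by 0.74 in forebrain from E11.5 to P0, a call lost without E11.5 replicate 2 or P0 replicate 1, and by 0.53 in liver, a call lost without E11.5 replicate 2 or P0 replicate 2. The 14 striated muscle markers summed to 12.6 and 10.6 TPM in forebrain at E11.5 and 24.6 and 16.9 TPM at P0, and to 272 and 454 TPM in liver at E16.5 and 31 and 124 TPM at P0. In hindbrain they reached 493 TPM in E16.5 replicate 1 against 25.5 TPM in the unnumbered E16.5 library. The part of muscle tissue in these values was not tested.

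**Figure D5:**
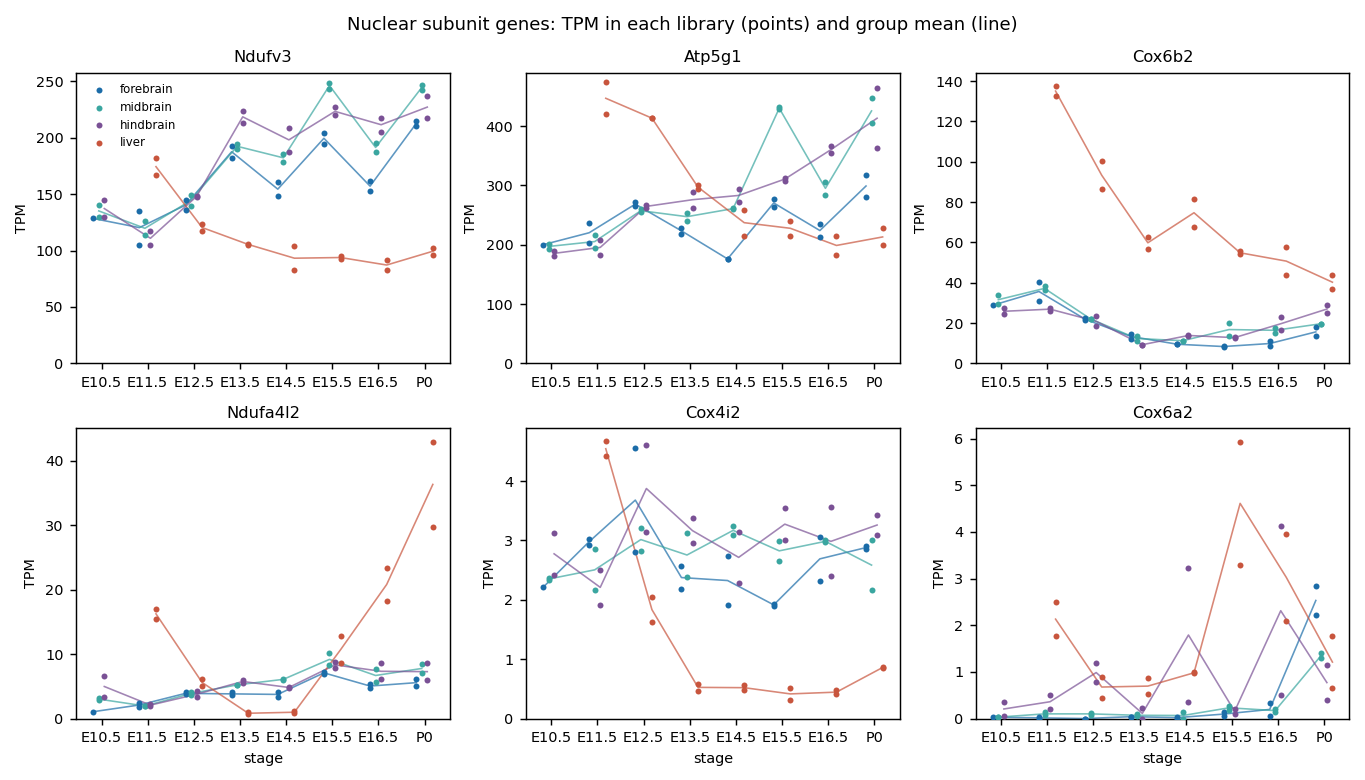
TPM of Ndufv3, Atp5g1, Cox6b2, Ndufa4l2, Cox4i2 and Cox6a2 by stage, with a point per library and a line through the group means, in 4 tissues. Ndufv3 and Atp5g1 rise in brain from E11.5 to P0 and fall in liver TPM, where median-of-ratios scaling turns both upward, and Cox6b2 is highest in liver at E11.5.

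Genes that build and supply the complexes were counted in the same comparisons, in which the shares of all genes that rose and fell were 38.8 and 34.3% in forebrain, 36.4 and 39.2% in midbrain, 34.6 and 37.8% in hindbrain and 13.9 and 63.6% in liver. Mitochondrial ribosomal proteins, which translate the 13 mitochondrial messages, mostly fell from E11.5 to P0: of 77 tested, 4 rose and 59 fell in forebrain, 9 and 58 in midbrain, 8 and 57 in hindbrain and 0 and 76 in liver. Their medians were -0.43, -0.50, -0.33 and -1.38, and under median-of-ratios scaling -0.39, -0.34, -0.20 and -0.24. Mrpl13 fell by 1.11 in forebrain and Mrps14 by 1.48 in midbrain. Of 20 tested genes for copying and transcribing mitochondrial DNA, 1 rose and 14 fell in forebrain, 0 and 18 in midbrain, 0 and 16 in hindbrain and 0 and 18 in liver. Ssbp1, the single-stranded DNA binding protein of mitochondria, fell by 1.51, 1.84, 1.29 and 1.86 in the 4 tissues, and Tfb1m, an rRNA methyltransferase, by 1.57 in forebrain. Over the same stages 11 of the 13 mitochondrially encoded genes rose in forebrain.

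Among assembly factors of complex I, 4 of 15 rose and 8 fell in forebrain, 4 and 9 in midbrain, 4 and 5 in hindbrain and 0 and 15 in liver. Ndufaf5, an early assembly factor, rose by 0.73, 0.83 and 0.89 in brain, and Nubpl, which delivers iron-sulfur clusters, fell by 1.12 and 0.74 in forebrain and midbrain. Of 21 factors of complex IV, 4 rose and 7 fell in forebrain, 5 and 8 in midbrain, 5 and 6 in hindbrain and 0 and 19 in liver. Sco2, a copper chaperone, rose by 1.16, 1.30 and 0.84 in brain and Coa4 fell by 1.23, 1.04 and 1.19. Of 10 factors of complexes II and III, 2 rose in each brain region, with 3, 3 and 4 lower, and 10 fell in liver. Ttc19, which acts on complex III, rose by 1.33, 1.35 and 1.15. Of 4 factors of complex V, 1 rose in each brain region and all 4 fell in liver. For comparison, 38.8 and 34.3% of all genes rose and fell in forebrain, 36.4 and 39.2% in midbrain, 34.6 and 37.8% in hindbrain and 13.9 and 63.6% in liver. Under median-of-ratios scaling 4 complex I factors rose and 7 fell in liver, and 10 complex IV factors rose and 8 fell; in hindbrain these counts were 6 and 3, and 10 and 6, and in midbrain 9 complex IV factors rose and 6 fell. The liver counts in TPM stand beside a median of -0.69 over all genes in liver.

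The remaining lists are read against the same shares of all genes, 38.8% higher and 34.3% lower in forebrain, 36.4 and 39.2% in midbrain, 34.6 and 37.8% in hindbrain and 13.9 and 63.6% in liver. Of 13 biogenesis regulators, 5 rose and 7 fell in forebrain, 6 and 7 in midbrain, 5 and 7 in hindbrain and 1 and 9 in liver. Ppargc1a, the coactivator of mitochondrial biogenesis, rose by 1.84, 2.56, 2.78 and 2.4 in the 4 tissues. Esrrg, a nuclear receptor it acts with, rose by 2.56 in midbrain and 2.23 in hindbrain, and Gabpb2, a subunit of the ETS factor GABP, fell by 1.87, 2.04 and 1.36 in brain. Of the 8 tested subunits and carriers outside the naming rule, 2 rose and 4 fell in forebrain, 3 and 2 in midbrain, 5 and 1 in hindbrain and 0 and 7 in liver, the last turned to 4 and 0 by median-of-ratios scaling. Slc25a4, the ADP/ATP carrier of heart, muscle and brain, rose by 0.83, 0.92 and 0.88, and Slc25a5, the carrier of dividing cells, fell by 1.28, 1.004 and 0.58. Of 16 genes of the citric acid cycle, which feeds the chain, 5 rose and 5 fell in forebrain, 8 and 3 in midbrain, 11 and 3 in hindbrain and 0 and 15 in liver; the forebrain counts are near the shares of all genes, and median-of-ratios scaling turned the liver counts to 10 and 4. Idh3a, an isocitrate dehydrogenase subunit, rose by 0.58, 0.98 and 0.996, and Suclg2, the GTP-forming succinyl-CoA ligase subunit, fell by 1.74, 1.44 and 0.70. Of 12 outer membrane and import genes, 4 rose and 7 fell in forebrain, 4 and 6 in midbrain, 4 and 5 in hindbrain and 0 and 12 in liver. Tomm20, the import receptor, rose by 0.95, 1.26 and 0.98, and Hspd1, the matrix chaperonin, fell by 1.44, 1.24 and 0.86.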

How the data were processed

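Stranded poly(A) libraries were made from total RNA, per the labels' protocols. The authors deposited 1 table of TPM values with no counts, made with STAR 2.4.0k and RSEM 1.2.23 on mm10, per the submitters' processing notes; transcript estimates of this kind divide reads shared by near-identical sequences. Columns were grouped by tissue and stage of their headers.

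From the deposited TPM, log2(TPM + 1) was fitted with limma 3.58.1 in R 4.3.3, with 1 mean per tissue and stage over all 61 libraries (30 residual degrees of freedom) and a mean-variance trend. The test covered the 18655 of 43346 genes that reached 1 TPM in 2 or more libraries. A gene was called, and is said to have risen or fallen, at a Benjamini-Hochberg adjusted p below 0.05 over all of them. With 1 or 2 libraries a group, all groups share 1 estimate of the spread. The code was tested on simulated data. Pseudogene copies were found with blastn 2.17.0 (identity of at least 95% over 100 or more bases of mm10, GENCODE M21).

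Members and gene lists were chosen with earlier results of these data known. The text names, per comparison and complex, up to 2 called members with the largest change and the most abundant member not called, all 13 mitochondrial genes, the isoform families, the members of highest and lowest mean TPM, and, of other lists, up to 2 genes called per direction. Alternatives were another pseudocount, filters, scalings, TPM totals, variance models, stage assignments, left-out libraries and a replicate block; 2 more were chosen after seeing the data (copies added, and only libraries with like microRNA rows and labels kept).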

Additional observations from a re-analysis of the deposited data

Results flagged for a closer look

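The change from E11.5 to P0 differed between the brain regions and liver in the test of the difference itself, which was made on TPM. It called 76 of 82 nuclear members and 7 of 13 mitochondrial members, all with a more positive change in brain, which is 92.7% and 53.8%. Among all genes tested 81.1% were called and 63.6% had the more positive change in brain, so the mitochondrial share lies below that of all genes. Under median-of-ratios scaling 12 nuclear members were more positive and 43 less, and 6 mitochondrial members less.

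Among named genes the difference (brain minus liver, log2) was 1.918 for Atp5g1, 1.765 for Ndufv3, 1.711 for Cox4i2 and 1.444 for Uqcrc1. The mt-Co3 row gave 2.363, or 0.63 with its chromosome 1 copy added. For mt-Atp8 the difference was 0.965 in TPM and -0.10 under median-of-ratios scaling.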

How the results depend on the processing

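Counts of nuclear and mitochondrial members called were recomputed for 10 comparisons. They stayed within 1.5 times the reported count, with the same prevailing direction, in 230 of 250 settings other than leaving out a library, and in 301 of 304 that left out 1. Of the exceptions among the 250 settings, 10 turned the prevailing direction, some of them with a count close to the reported one, and 10 changed in number only. The exceptions under median-of-ratios scaling were 72 nuclear and 12 mitochondrial members in liver P0 against E11.5, 81 and 13 in brain against liver, 55 and 6 in the brain minus liver change and 4 mitochondrial members in forebrain against midbrain. Under quantile normalization they were 37 and 8 in liver P0 against E11.5, 22 and 3 in liver P0 against E16.5, 72 nuclear members in brain against liver, and 3 mitochondrial members each in forebrain P0 against E16.5 and forebrain against midbrain. Without mitochondrial and haemoglobin rows, 53 nuclear members were called in liver P0 against E16.5 and 71 in brain against liver, both with the prevailing direction turned. With copies added, 9 mitochondrial members were called in forebrain P0 against E16.5 and 12 in forebrain against hindbrain, and with like libraries only, 26 nuclear and 0 mitochondrial members in forebrain against midbrain. The cause was not tested.

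Leaving out a library gave 16 to 37 nuclear members in forebrain P0 against E16.5 (16 without forebrain P0 replicate 1) and 3 to 9 mitochondrial members in liver P0 against E11.5.

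Signs of named genes turned as follows. Under median-of-ratios scaling in liver P0 against E11.5, the log2 differences were 0.107 for Atp5g1, 0.016 for Ndufa12, 0.480 for Sdha, 0.055 for Uqcrc1, 0.030 for Ndufa10, 0.433 for Sdhc and 0.585 for mt-Co2. In brain against liver they were -0.036 for Cox5a, -0.110 for Ndufs4, -0.674 for Uqcrc1, -0.425 for Sdhc, -0.293 for mt-Nd4 and -0.348 for mt-Cytb, and in the brain minus liver change -0.104 for mt-Atp8. Under quantile normalization mt-Co1 was -0.092 in forebrain, -0.456 in midbrain, -0.183 in hindbrain and -0.866 in liver, mt-Cytb -0.584 in liver, mt-Nd1 -0.106 and mt-Nd2 -0.023 in liver P0 against E16.5, and Uqcrc1 -0.117 in brain against liver. Without mitochondrial and haemoglobin rows Sdhb was -0.003 in liver P0 against E16.5. With copies added mt-Co3 was 0.824 in hindbrain, 0.332 in liver and 0.461 in liver P0 against E16.5, and mt-Co2 0.199 in liver. Those of mt-Co3 and mt-Co2 follow from adding the copy's TPM to the row.

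Replicate numbers were not taken to pair the libraries: deviations of same-numbered libraries correlated at 0.162 in forebrain and -0.057 in liver for P0 against E11.5, at 0.106 and 0.199 for P0 against E16.5, and at -0.634 to 0.226 over 276 pairs of groups in brain against liver, so not every pair was above 0.1. With the replicate block, 48 and 72 nuclear members were called in forebrain and liver P0 against E11.5, in place of 48 and 70. That fit also left out the 4 columns of unsure stage, which are in midbrain and hindbrain, so counts for those regions are not given. TPM keeps no depth, so how far depth limits the low isoforms is unknown.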
